A study of Mus musculus with 12 samples.

Results

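The class I histocompatibility genes described here are 8 genes of the mouse antigen-presentation system: the heavy chain genes H2-D1, H2-K1, H2-T22, H2-T23, H2-T24 and H2-Q4, the light chain gene B2m and the peptide transporter gene Tap1. They are 8 of the 54429 entries of the deposited count table and were taken from it by name. H2-T22, H2-T23, H2-T24 and H2-D1 were picked because they were higher in the basolateral amygdala of isolated mice, so their values in that contrast describe the choice and carry no test. The samples were brain punches from C57BL/6 mice, sequenced as 12 RNA libraries with 3 in each of 4 groups. The groups are BLA_ESI, BLA of mice isolated early in life; BLA_GH, BLA of group-housed mice; VTA_ESI, VTA of mice isolated early in life; and VTA_GH, VTA of group-housed mice. The design text gives male mice for BLA and female mice for VTA, so region and sex cannot be told apart, and neither age nor the length of isolation was stated. BLA and VTA are the usual abbreviations of the basolateral amygdala, a region that assigns emotional value to stimuli, and of the ventral tegmental area, a midbrain region that holds dopamine neurons.

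A class I molecule is a heavy chain paired at the cell surface with beta-2 microglobulin, the product of B2m, and it holds a short peptide that the transporter of Tap1 and Tap2 moved into the endoplasmic reticulum. H2-D1 and H2-K1 are classical heavy chains that show peptides to CD8 T cells, while H2-T23 encodes the nonclassical chain Qa-1, a ligand of receptors on natural killer cells, and H2-T22 is recognised by some gamma-delta T cells in mice. Interferon raises the transcription of these genes in many cell types, and in brain, where the level is low in most cells, classical class I molecules have been studied in synapse refinement as well as in immunity.

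The stretches before the transcription start show how alike and how unlike the regulatory DNA of these genes is. A RefSeq window (GRCm38.p6) was found for 7 of the 8 members and reached from 250 bases before to 50 bases after the start. The 250 bases before the start are printed 5′ to 3′ for 5 members, with the letters of a matched motif in capitals: H2-D1 at chr17:35262844-35263093 on the plus strand, H2-K1 at chr17:34000334-34000583 on the minus strand, H2-T22 at chr17:36042743-36042992 on the minus strand, H2-T23 at chr17:36032702-36032951 on the minus strand and B2m at chr2:122147437-122147686 on the plus strand.
H2-D1: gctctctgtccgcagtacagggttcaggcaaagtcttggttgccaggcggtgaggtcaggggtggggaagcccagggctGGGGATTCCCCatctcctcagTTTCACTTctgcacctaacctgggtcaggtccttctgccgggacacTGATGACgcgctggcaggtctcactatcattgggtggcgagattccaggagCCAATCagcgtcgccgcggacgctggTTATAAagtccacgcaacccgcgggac
H2-K1: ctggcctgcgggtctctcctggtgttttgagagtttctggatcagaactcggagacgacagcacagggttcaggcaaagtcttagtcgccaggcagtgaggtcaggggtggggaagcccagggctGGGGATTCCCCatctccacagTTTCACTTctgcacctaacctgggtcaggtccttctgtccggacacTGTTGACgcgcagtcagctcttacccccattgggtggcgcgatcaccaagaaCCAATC
H2-T22: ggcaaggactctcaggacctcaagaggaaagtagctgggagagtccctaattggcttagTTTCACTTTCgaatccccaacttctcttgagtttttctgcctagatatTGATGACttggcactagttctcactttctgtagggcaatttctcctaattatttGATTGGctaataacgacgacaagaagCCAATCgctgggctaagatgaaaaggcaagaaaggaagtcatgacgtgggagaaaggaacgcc
H2-T23: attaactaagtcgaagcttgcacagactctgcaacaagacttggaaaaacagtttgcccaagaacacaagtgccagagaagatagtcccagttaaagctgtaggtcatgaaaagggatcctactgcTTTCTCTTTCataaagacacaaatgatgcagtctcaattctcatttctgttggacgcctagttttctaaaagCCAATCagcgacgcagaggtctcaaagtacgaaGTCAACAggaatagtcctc
B2m: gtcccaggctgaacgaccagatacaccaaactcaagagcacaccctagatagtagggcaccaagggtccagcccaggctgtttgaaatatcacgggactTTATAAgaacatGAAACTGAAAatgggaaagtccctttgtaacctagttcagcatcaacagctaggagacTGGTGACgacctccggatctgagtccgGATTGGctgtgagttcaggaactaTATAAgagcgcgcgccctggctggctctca

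Motifs were searched on both strands of the 300-base windows, and were chosen after the windows had been read. They were the kappaB site of enhancer A (GGGGATT, any base, CCC), a canonical interferon element (GAAA, any 2 bases, GAAA), the form of it common in class I genes (AANTGAAA), an X box (TGNTGAC), a Y box (CCAATC) and a TATA box (TATAA). The interferon forms can overlap each other, and a TATA match on one strand can overlap a match on the other. Of 32851 RefSeq windows of the same length, 0.0761% held the kappaB letters, 3.44% the canonical interferon element, 6.58% the class I form, 14.1% the X box, 16.1% the Y box and 24.9% the TATA box. The classical genes H2-D1 and H2-K1 and the nonclassical H2-Q4 held the same 5 motifs in the same order, kappaB, class I interferon form, X box, Y box and TATA box. In H2-D1 the kappaB letters ran from -171 to -161 and the X box from -104 to -98, counted from the start. For H2-K1 the window printed held the Y box just before the start and its TATA letters after it, outside the stretch shown. B2m held 5 motifs without the kappaB letters, H2-T22 held 4 and H2-T23 held 3, both without kappaB and TATA letters, and Tap1 held the Y box. Windows with at least 5 of the 6 motifs numbered 7 among all those searched, or 0.0213%, and 5 of these 7 are the windows of H2-D1, H2-K1 (a pair of windows), H2-Q4 and B2m, from which the motifs were chosen, so this share shows no rarity beyond the choice. A match of letters is a description and not a binding site.

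Total counts per library ran from 28278708 to 69276892, and the summed counts of single members from 5 for H2-Q4 in BLA_GH library 2 to 5526 for B2m in VTA_GH library 3. Whether the 3 libraries of a group represent separate animals is not stated in the labels. The p-values then reflect only library-to-library spread, part of which may be technical. Reads at 3 loci that collect ribosomal RNA made up 18.6% of BLA_ESI library 3, 28.6% of BLA_GH library 1 and 41.8% of BLA_GH library 2, against at most 1.57% elsewhere. CPM are library-size-scaled counts, with TMM factors over the 12 libraries. Summed choroid plexus markers were high in VTA_ESI library 3 (5386 CPM) and library 1 (863 CPM), while VTA_GH had 341 to 452 CPM. Between the regions, 7 of 7 dopamine neuron genes were lower and 7 of 7 genes of cortical and basolateral glutamatergic neurons were higher in BLA than in VTA. VTA_ESI library 3 stood out, with 298 CPM of the summed glutamatergic genes. VTA_ESI libraries 1 and 2 had 35.2 and 23.1 CPM, VTA_GH 11.5 to 16.8 CPM and the BLA libraries 562 to 1194 CPM. In punches of mixed tissue, fewer cells of a type and less RNA per cell cannot be told apart.

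Per kilobase of exon, B2m was by far the most abundant member in all 4 groups, and H2-Q4 and Tap1 were at the bottom. The mean level of B2m was 39.1 CPM per kb in BLA_ESI, 50.4 in BLA_GH, 70.1 in VTA_ESI and 62.9 in VTA_GH. H2-D1 came next with 4.01 CPM per kb in BLA_ESI, 2.43 in BLA_GH, 16.7 in VTA_ESI and 17.02 in VTA_GH, and H2-K1 followed with 2.70, 1.97, 8.26 and 9.41 CPM per kb in the same 4 groups. In VTA_GH the order went on with H2-T22 at 5.43 CPM per kb, H2-T23 at 3.85, H2-T24 at 2.84, H2-Q4 at 1.04 and Tap1 at 0.813. In that group B2m (50.8 to 76.5 CPM per kb) did not overlap with H2-D1 (11.8 to 21.2), while each later member overlapped with its neighbour in the order, except that H2-Q4 (0.650 to 1.58) lay apart from H2-T24 (2.47 to 3.22). In BLA_GH, H2-T24 at 1.06 CPM per kb and Tap1 at 0.494 stood above H2-Q4 at 0.116, and H2-T23 was at 0.666.

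**Figure D1:**
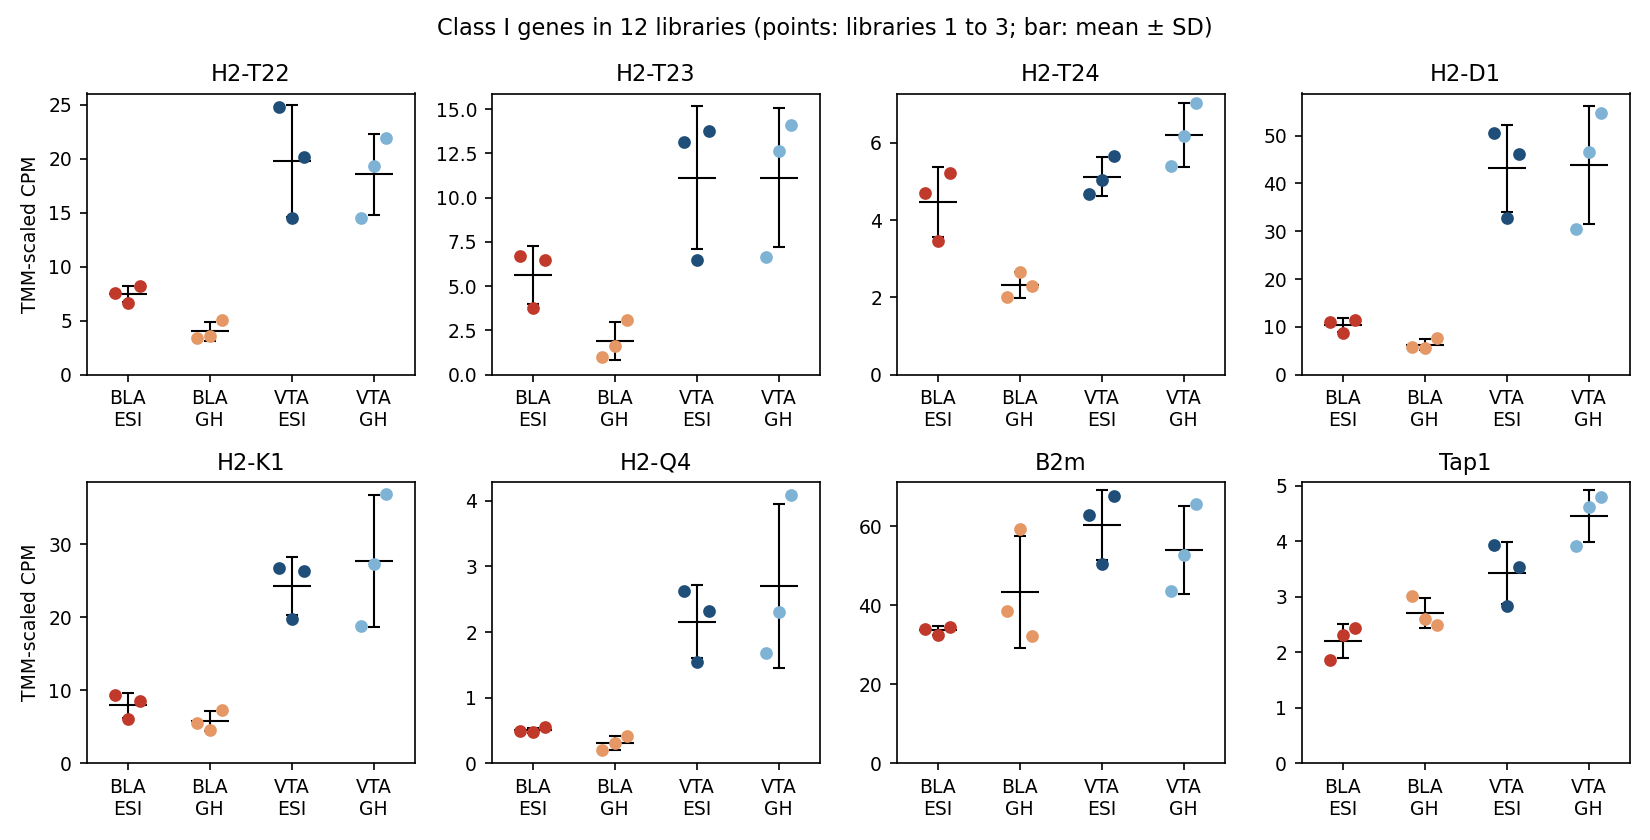
TMM-scaled CPM (y axis, linear, from 0) of the 8 members in the libraries of the 4 groups (x axis); each point is a library and the bars are the mean ± SD (n = 3). For H2-D1 the 6 BLA libraries lie between 5.51 and 11.3 CPM and the 6 VTA libraries between 30.5 and 54.7 CPM, whereas for B2m the highest BLA library (59.3 CPM) lies above 3 VTA libraries.

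All 8 members were lower in BLA than in VTA. This contrast, the mean of the 2 BLA groups against the mean of the 2 VTA groups in a fit of all 12 libraries, weighs isolated and group-housed mice alike and was not used to pick the members. At an adjusted p under 0.05 (edgeR's quasi-likelihood test, Benjamini-Hochberg adjustment over 25009 genes) 8 of 8 members were called lower, where 24.1% of all genes tested were called lower, 23.7% higher and 47.7% in either direction. The members' median log2 fold change was -1.77, against -0.02 over all genes tested. The fold changes of the 6 heavy chains exceeded those of B2m and Tap1, that of H2-T24 by the least.

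Of the classical chains, H2-D1 had 5.51, 8.11 and 11.3 CPM as the lowest, median and highest of the 6 BLA libraries, and 30.5, 46.3 and 54.7 CPM in the 6 VTA libraries. Its libraries did not overlap, and the log2 fold change, BLA over VTA, was -2.43 (SE 0.17, edgeR adjusted p = 3.96e-07). H2-K1 had 4.54, 6.66 and 9.29 CPM in BLA and 18.8, 26.5 and 36.9 CPM in VTA, again without overlap. Its log2 fold change was -1.92 (SE 0.19, edgeR adjusted p = 5.37e-06). Non-overlap in this direction was seen for 4 of 8 members (H2-D1, H2-K1, H2-T22 and H2-Q4) and for 14.1% of all genes tested.

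Among the nonclassical chains, H2-Q4 differed most. It had 0.193, 0.440 and 0.547 CPM as the lowest, median and highest BLA values and 1.54, 2.31 and 4.09 CPM in VTA, a log2 fold change of -2.61 (SE 0.27, edgeR adjusted p = 2.02e-06). In BLA these levels rested on 5 to 29 counts per library. H2-T22 had 3.40, 5.84 and 8.17 CPM in BLA and 14.5, 19.7 and 24.8 CPM in VTA, a log2 fold change of -1.80 (SE 0.15, edgeR adjusted p = 4.42e-07). H2-T23 spread most among the BLA libraries, from 1.02 to 6.68 CPM with a median of 3.43, and had 6.49, 12.9 and 14.1 CPM in VTA. The highest BLA library of H2-T23 overlapped with the lowest VTA library, and the log2 fold change was -1.73 (SE 0.32, edgeR adjusted p = 0.00121). H2-T24 was the heavy chain with the smallest difference, with 2.02, 3.06 and 5.22 CPM in BLA and 4.67, 5.52 and 7.02 CPM in VTA. Its log2 fold change was -0.82 (SE 0.14, edgeR adjusted p = 0.00017).

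B2m and Tap1, the members that are not heavy chains, were lower by less, a gap that was not tested. Tap2, which is not a member, was at -1.25, beyond the heavy chain H2-T24 at -0.82. B2m had 32.2, 34.2 and 59.3 CPM as the lowest, median and highest BLA values and 43.7, 57.8 and 67.7 CPM in VTA, a log2 fold change of -0.59 (SE 0.15, edgeR adjusted p = 0.00644). Tap1 had 1.85, 2.46 and 3.01 CPM in BLA and 2.84, 3.92 and 4.81 CPM in VTA, a log2 fold change of -0.68 (SE 0.14, edgeR adjusted p = 0.00102). For both genes the ranges of the regions overlapped. The ratio of H2-D1 to B2m counts within a library, which no scaling factor touches, was 9.30 to 32.8 H2-D1 counts per 100 B2m counts in the BLA libraries and 65.2 to 88.2 in the VTA libraries.

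Cell type markers moved with this contrast. All 10 endothelial markers were called lower in BLA, with a summed level of 222 to 234 CPM in BLA and 251 to 359 CPM in VTA. All 6 oligodendrocyte markers were called lower, with 2561 to 5164 CPM in BLA and 6358 to 12565 CPM in VTA. Microglial markers went the other way: 12 of 12 were higher and 9 were called higher in BLA, with 396 to 531 CPM in BLA and 254 to 439 CPM in VTA. Of 6 astrocyte markers 4 were called lower and 1 higher, of 10 choroid plexus markers 4 were called lower, of 5 red blood cell markers 1, and of 7 leukocyte markers tested 1 was called lower and 2 higher. No marker of the endothelial, oligodendrocyte, microglial or astrocyte lists was at 0 in any group, and the part of cell makeup in the members' difference was not tested.

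Other genes of the pathway were lower in BLA as well. Over 9 lists of pathway genes, 57 of 83 genes tested were called lower and 9 were called higher in BLA. Among the class I heavy chains other than the members, 8 of 10 were called lower and 1 higher. H2-Q2 averaged 0.332 CPM in BLA and 7.86 CPM in VTA (SD 0.35 and 2.3, n = 6 each), H2-Q6 0.171 CPM in BLA and 1.24 CPM in VTA, and H2-M3, which presents formylated peptides, 1.76 CPM in BLA and 3.70 CPM in VTA. Of the class I-like molecules, 5 of 7 were called lower, led by Mr1, which presents vitamin B metabolites (log2 fold change -1.71, SE 0.12, edgeR adjusted p = 4.99e-08), and by Cd1d1, which presents lipids (-1.22, SE 0.19, adjusted p = 6.4e-05).

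In peptide transport and loading, 4 of 7 genes were called lower. Tap2, the partner of Tap1 in the transporter, averaged 3.09 CPM in BLA and 7.40 CPM in VTA (log2 fold change -1.25, SE 0.15, edgeR adjusted p = 5.4e-06), and Erap1, which trims peptides, had a log2 fold change of -0.83 (SE 0.08, edgeR adjusted p = 6.11e-07). Tapbp (tapasin) and the chaperone Canx were called lower by less, at -0.43 and -0.32. Of the immunoproteasome and its activator, 3 of 5 were called lower: the catalytic subunit Psmb9 at -1.15 (SE 0.26, edgeR adjusted p = 0.00198) and the activator subunits Psme1 at -0.44 and Psme2 at -0.47.

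Of 10 genes that regulate class I transcription, 7 were called lower and 2 higher in BLA. Nlrc5, the transactivator of class I genes, averaged 0.651 CPM in BLA and 1.69 CPM in VTA (log2 fold change -1.39, SE 0.23, edgeR adjusted p = 0.000145). The kappaB subunit gene Nfkb1 had a log2 fold change of -0.54. Upstream of these the interferon gamma receptor and signalling list was mixed, with 3 of 5 genes called higher (Ifngr2 at 0.67, Jak1 at 0.44 and Jak2 at 0.26) and 2 called lower. The interferon response list had 22 of 25 genes called lower and 1 higher, with Ifit3 at -1.30, Ifitm3 at -1.28 and Ifit1 at -1.44. Among class II molecules 5 of 10 were called lower and 2 higher, and of 4 tested receptors for class I molecules 1 was called lower, Klra2 at -0.80 (SE 0.25, edgeR adjusted p = 0.0157).

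**Figure D2:**
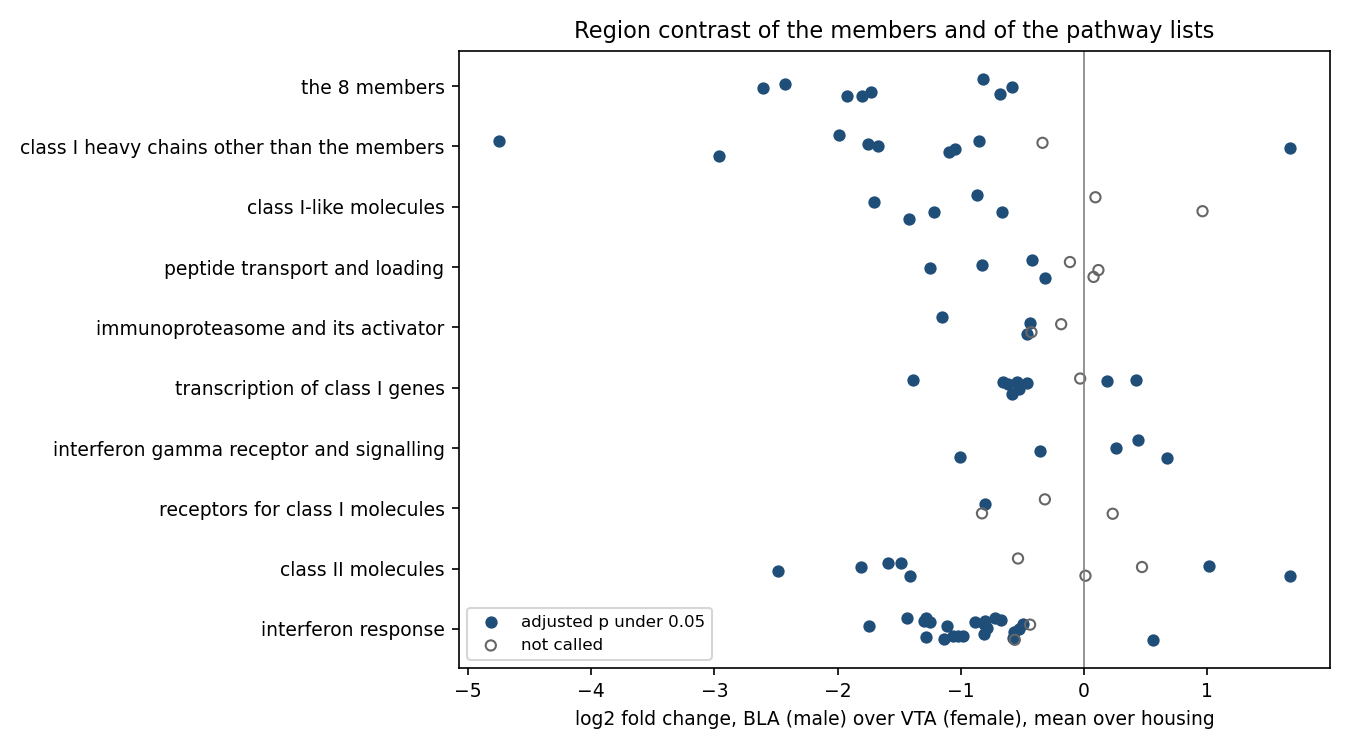
Log2 fold change, BLA over VTA with housing averaged (x axis), of the 8 members and of the genes in 9 pathway lists (rows, jittered vertically); filled points passed an adjusted p of 0.05 in edgeR's quasi-likelihood test and open points did not. All 8 members lie left of 0, from -2.61 for H2-Q4 to -0.59 for B2m, and the filled point at 1.67 among the other heavy chains is H2-T10.

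In the VTA, isolation was not accompanied by a call for any member. At an adjusted p under 0.05 (edgeR's quasi-likelihood test over 24082 genes) 0 of 8 members were called, where 0.00415% of all genes tested, that is 1 gene, were called. At an unadjusted p under 0.05 there was 1 of 8 members, Tap1, against 18.3% of all genes. The members' log2 fold changes, isolated over group-housed, had a median of -0.17, against -0.00 over all genes tested, with 2 members higher and 6 lower. The groups overlapped for 8 of 8 members, where 11.6% of all genes tested had isolated libraries wholly below and 17.4% wholly above the group-housed ones.

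H2-D1 had 50.4, 32.8 and 46.1 CPM in VTA_ESI libraries 1 to 3 and 30.5, 46.5 and 54.7 CPM in VTA_GH libraries 1 to 3. VTA_ESI library 2 and VTA_GH library 1 were the low ones, and the log2 fold change was -0.09 (SE 0.24, edgeR adjusted p = 0.864). H2-K1 had 26.8, 19.7 and 26.3 CPM in VTA_ESI and 18.8, 27.3 and 36.9 CPM in VTA_GH, with the same low libraries and a log2 fold change of -0.25 (SE 0.24, edgeR adjusted p = 0.586). H2-T22 had 24.8, 14.5 and 20.1 CPM in VTA_ESI and 14.5, 19.3 and 21.9 CPM in VTA_GH (log2 fold change 0.03, SE 0.21, edgeR adjusted p = 0.948). H2-T23 shared the low libraries of the other chains, with 13.1, 6.49 and 13.8 CPM in VTA_ESI and 6.66, 12.6 and 14.1 CPM in VTA_GH (log2 fold change -0.06, SE 0.37, edgeR adjusted p = 0.940). For these 4 chains the spread within each group was wider than the difference of the means.

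H2-T24 and Tap1 came nearest to separation. H2-T24 had 4.67, 5.04 and 5.66 CPM in VTA_ESI and 5.39, 6.18 and 7.02 CPM in VTA_GH, so that only VTA_ESI library 3 reached into the group-housed range, and its log2 fold change was -0.33 (SE 0.16, edgeR adjusted p = 0.311). Tap1 had 3.93, 2.84 and 3.53 CPM in VTA_ESI and 3.92, 4.62 and 4.81 CPM in VTA_GH, with a log2 fold change of -0.44 (SE 0.18, edgeR adjusted p = 0.267). H2-Q4 had 2.62, 1.54 and 2.31 CPM in VTA_ESI and 1.69, 2.31 and 4.09 CPM in VTA_GH (log2 fold change -0.39, SE 0.35, edgeR adjusted p = 0.545). B2m had 62.8, 50.4 and 67.7 CPM in VTA_ESI and 43.7, 52.7 and 65.8 CPM in VTA_GH (log2 fold change 0.10, SE 0.16, edgeR adjusted p = 0.747). The levels of B2m overlapped throughout.

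None of the 81 pathway genes tested in the VTA was called by edgeR either. Among the other class I heavy chains 9 of 10 had lower values in isolated mice, with a median log2 fold change of -0.55; H2-M10.2 was at -0.93 (SE 0.32, adjusted p = 0.240) and H2-Q2 at -0.58 (SE 0.25, adjusted p = 0.273). Nlrc5 averaged 1.23 CPM in VTA_ESI and 2.15 CPM in VTA_GH, a log2 fold change of -0.84 (SE 0.28, edgeR adjusted p = 0.236). In the interferon response list 16 of 25 genes had lower and 9 higher values, with a median of -0.05. Markers of other cells were higher in value in the isolated VTA libraries: 10 of 10 choroid plexus markers, with 414 to 5386 CPM summed in VTA_ESI and 341 to 452 CPM in VTA_GH; 12 of 12 microglial markers, with 271 to 439 CPM and 254 to 315 CPM in the same groups; 7 of 7 markers of cortical and basolateral glutamatergic neurons, with 23.1 to 298 CPM in VTA_ESI and 11.5 to 16.8 CPM in VTA_GH, without overlap; and 6 of 6 oligodendrocyte markers, with 9276 to 12565 CPM in VTA_ESI and 6358 to 10521 CPM in VTA_GH. None of these markers was called or at 0, and their part in the members' values was not tested. Without VTA_ESI libraries 1 and 3, which were rich in choroid plexus markers, the lone isolated library, assumed to vary like the group-housed ones, gave log2 fold changes of -0.38 for H2-T22, -0.80 for H2-T23, -0.32 for H2-T24, -0.44 for H2-D1, -0.51 for H2-K1, -0.83 for H2-Q4, -0.13 for B2m and -0.67 for Tap1.

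In the BLA, the 4 picked genes were higher in every isolated library than in any group-housed library, and the values that follow are the ones behind the choice. H2-T22 had 7.57, 6.64 and 8.17 CPM in BLA_ESI libraries 1 to 3 and 3.40, 3.57 and 5.04 CPM in BLA_GH libraries 1 to 3, a log2 fold change of 0.88 (SE 0.20). H2-T23 had 6.68, 3.75 and 6.50 CPM in BLA_ESI and 1.02, 1.63 and 3.12 CPM in BLA_GH, with a log2 fold change of 1.504 (SE 0.39). The group-housed values of H2-T23 rested on 37, 27 and 176 counts. H2-T24 had 4.71, 3.46 and 5.22 CPM in BLA_ESI and 2.02, 2.66 and 2.28 CPM in BLA_GH (log2 fold change 0.96, SE 0.23), and H2-D1 had 11.1, 8.63 and 11.3 CPM in BLA_ESI and 5.72, 5.51 and 7.59 CPM in BLA_GH (log2 fold change 0.71, SE 0.18). BLA_ESI library 2 was the lowest isolated library for all 4. BLA_GH library 3 was the highest group-housed library for 3 of them, H2-T24 being the exception.

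The picked genes were selected on their higher BLA values in isolated mice. Of the members that were not picked, H2-Q4 and H2-K1 had higher means in isolated mice and B2m and Tap1 lower means. A difference between heavy chains and partners was not tested, and the groups overlapped for H2-K1 and B2m. Without the 3 BLA libraries of high ribosomal RNA content, H2-K1 was at 0.06 and B2m at 0.04, with H2-Q4 at 0.24 and Tap1 at -0.26. H2-Q4 had a log2 fold change of 0.71 like H2-D1 but a wider error (SE 0.47), and no threshold of the choice is stated. It had 0.492, 0.473 and 0.547 CPM in BLA_ESI and 0.193, 0.303 and 0.407 CPM in BLA_GH. These are 26, 29 and 18 counts in BLA_ESI and 7, 5 and 23 counts in BLA_GH. H2-K1 had 9.29, 6.00 and 8.47 CPM in BLA_ESI and 5.55, 4.54 and 7.31 CPM in BLA_GH (log2 fold change 0.43, SE 0.22), with overlapping groups. The partners had lower means in the isolated mice. B2m had 34.002, 32.4 and 34.5 CPM in BLA_ESI and 38.5, 59.3 and 32.2 CPM in BLA_GH (log2 fold change -0.35, SE 0.20), a difference set largely by BLA_GH library 2. Tap1 had 1.85, 2.32 and 2.43 CPM in BLA_ESI and 3.01, 2.604 and 2.496 CPM in BLA_GH (log2 fold change -0.30, SE 0.23).

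In this contrast 5 members lay wholly above and 1 wholly below the group-housed libraries, where 4.15% of 22110 genes tested lay above and 2.96% below, and 0% of all genes were called by edgeR at an adjusted p under 0.05, with 439 genes at an unadjusted p under 0.05 and 6 called by DESeq2. As 4 of the members above were picked in this contrast, their count says nothing further of them. The unpicked members were H2-Q4, which lay above, and Tap1, which lay below, and neither was tested here. The loci of ribosomal RNA reads varied widely within both groups. They held 1.32%, 0.203% and 18.6% of counts in BLA_ESI libraries 1 to 3 and 28.6%, 41.8% and 0.792% in BLA_GH libraries 1 to 3. The part of this in the values was not tested within the fit. BLA_GH libraries 1 and 2, the richest in such reads, had the lowest BLA values of every heavy chain member except H2-T24. BLA_ESI library 3, the next richest, had the highest BLA values of H2-T22, H2-T24, H2-D1 and H2-Q4, but not of H2-T23 and H2-K1. Without these 3 libraries, 2 isolated libraries against 1 group-housed library, assumed to vary like them, gave log2 fold changes of 0.49 for H2-T22, 0.74 for H2-T23, 0.84 for H2-T24, 0.37 for H2-D1, 0.06 for H2-K1, 0.24 for H2-Q4, 0.04 for B2m and -0.26 for Tap1. The B2m value thus changed direction, and without BLA_GH library 2 alone it was -0.07.

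The summed cell markers overlapped between the BLA groups, but single markers leaned by list. In BLA_ESI 7 of 7 markers of cortical and basolateral glutamatergic neurons had lower values, and 5 of 5 dopamine neuron markers tested had higher values. Microglial markers were 10 higher and 2 lower, oligodendrocyte 5 and 1, and choroid plexus 5 and 3. Endothelial markers were 4 higher and 6 lower, astrocyte 1 and 5, and red blood cell 1 and 4. No marker was called, and their part in the members' values was not tested. Summed microglial markers were 399 to 531 CPM in BLA_ESI and 396 to 481 CPM in BLA_GH, and endothelial markers 225 to 234 CPM in BLA_ESI and 222 to 230 CPM in BLA_GH. Leukocyte markers summed to 22.1 to 37.9 CPM in BLA_ESI and 24.3 to 36.5 CPM in BLA_GH. Of the 4 leukocyte markers tested in the BLA, 1 had higher and 3 had lower values in BLA_ESI. Of the 12 leukocyte genes listed, the T cell genes Cd3e and Cd3d and the neutrophil gene S100a8 were at 0 in all 3 group-housed libraries. The choroid plexus gene Otx2 was at 0 there as well. Such zeros lie at the detection floor and were not tested as a difference between the groups. BLA_GH library 2 had the fewest total counts of the 12 libraries. For the rest of the pathway the values were mixed or lower. Of 25 interferon response genes 4 had higher and 21 lower values in BLA_ESI, of 7 peptide transport and loading genes 1 higher and 6 lower, of 5 immunoproteasome genes 1 higher and 4 lower, and of 6 other class I heavy chains tested 4 higher and 2 lower. None of these genes was called.

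**Figure D3:**
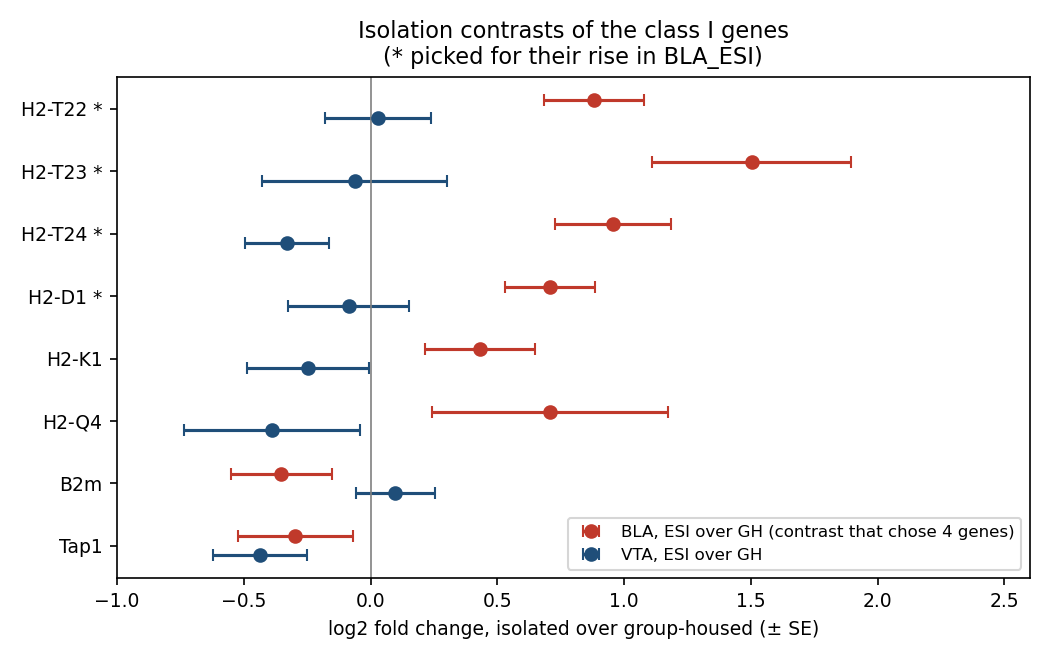
Log2 fold change, isolated over group-housed (x axis), with its SE from edgeR (bars), of the 8 members (rows) in BLA (red) and in VTA (blue); stars mark the 4 genes picked in the BLA contrast. In BLA the 6 heavy chains lie between 0.43 and 1.504 and B2m and Tap1 below 0, and in VTA the 8 values lie between -0.44 and 0.10.

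H2-T22 shares much of its sequence with a neighbour, which bears on how its reads could be assigned. Of the 50-base stretches of H2-T22 transcripts, 53.5% also occur, in either orientation, in transcripts of other genes. The share was 31.2% for H2-T10, another nonclassical heavy chain gene, annotated as a polymorphic pseudogene. It was 26.5% for A930015D03Rik, which lies on the opposite strand across H2-T22, H2-T23 and H2-T24. The shared share was 36.4% for H2-Q4, 14.5% for H2-T23, 12.8% for H2-D1, 9.63% for H2-K1, 3.33% for Tap1, 3.17% for H2-T24 and 0% for B2m. The share of H2-Q4 likewise includes 15.3% for Gm11131, which lies on the opposite strand, and 9.68% for the heavy chain H2-Q6. The shares of H2-T22 and H2-Q4 thus mix related genes with opposite-strand genes. As the strand setting of the counts is not given, the values of both are uncertain as to which gene the reads came from. A930015D03Rik had at most 0.542 CPM in any library.

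H2-T10, singled out after its values were seen, was high where H2-T22 was low. H2-T10 had 4.30, 4.94 and 2.82 CPM in BLA_ESI, 5.16, 7.75 and 5.61 CPM in BLA_GH, 1.08, 3.28 and 0.716 CPM in VTA_ESI and 2.43, 0.900 and 0.940 CPM in VTA_GH. It was the heavy chain called higher in BLA than in VTA (log2 fold change 1.67, SE 0.39, edgeR adjusted p = 0.00425). In the VTA its high libraries, VTA_ESI library 2 and VTA_GH library 1, were the low libraries of H2-T22, H2-T23, H2-D1 and H2-K1. The sum of H2-T22 and H2-T10 was 11.9, 11.6 and 10.99 CPM in BLA_ESI and 8.56, 11.3 and 10.7 CPM in BLA_GH, so that the groups, apart for H2-T22 alone, overlapped in the sum. H2-T22 made up 57.3% to 74.3% of that sum in BLA_ESI, 31.6% to 47.3% in BLA_GH, 81.5% to 96.6% in VTA_ESI and 85.7% to 95.9% in VTA_GH. Whether reads were exchanged between these genes was not tested.

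**Figure D4:**
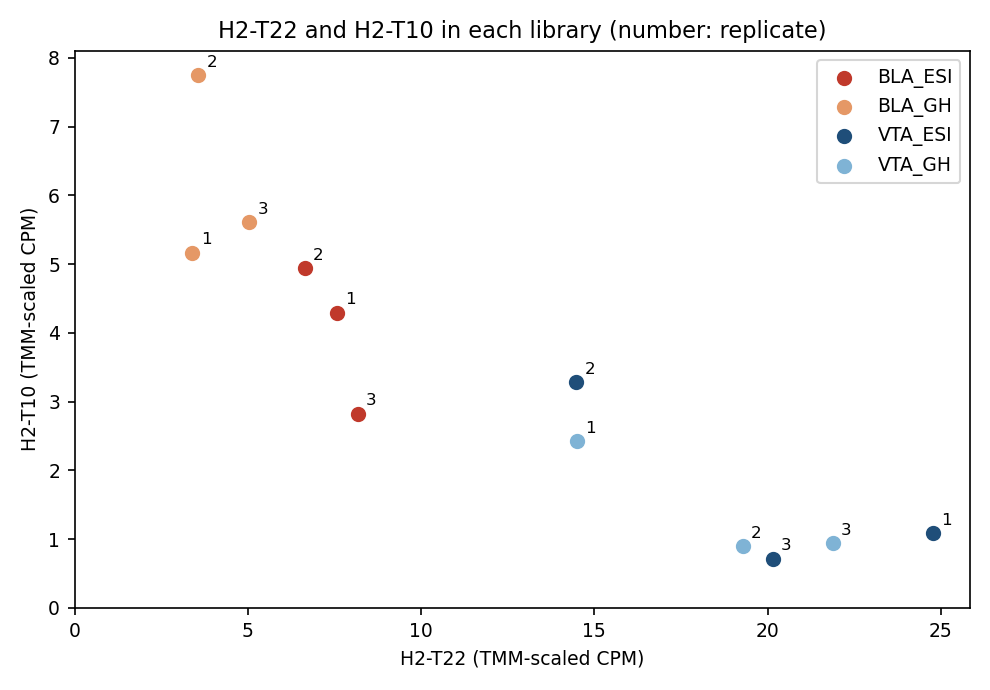
H2-T22 (x axis) against H2-T10 (y axis), both in TMM-scaled CPM on linear axes, in the 12 libraries, coloured by group and numbered by replicate. BLA_GH libraries lie at the upper left (H2-T10 from 5.16 to 7.75 CPM), BLA_ESI libraries lower and to the right, and 4 of 6 VTA libraries at the lower right with H2-T10 at most 1.08 CPM.

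The covariation of the members was described within and across the regions. Within the 6 VTA libraries, which the choice did not use, Pearson's r was 0.16 to 0.97 among the 15 pairs of heavy chain members, with a median of 0.83. Between a heavy chain and B2m or Tap1 it was 0.26 to 0.87 with a median of 0.72, so the ranges overlapped, and between a heavy chain and H2-T10 it was -0.97 to -0.46. After each region's mean was subtracted, r over the 12 libraries was 0.63 to 0.96 among heavy chain pairs, -0.26 to 0.05 between a heavy chain and B2m or Tap1, and -0.79 to -0.47 between a heavy chain and H2-T10. These last values include the BLA contrast in which 4 of the heavy chains were picked, so the choice fixes part of them. All of them share libraries and depth and are descriptions.

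On chromosome 17 the members sit in the H2 region (mm10 coordinates): H2-K1 at chr17:33996017-34000347, Tap1 at chr17:34187553-34197225, H2-D1 at chr17:35262730-35267499, H2-Q4 at chr17:35379617-35385290, H2-T24 at chr17:36005695-36020560, H2-T23 at chr17:36029773-36032855 and H2-T22 at chr17:36037128-36042747. B2m lies on another chromosome, at chr2:122147686-122153083. Each is annotated as protein coding. From 1 Mb before to 1 Mb after these genes, 148 other genes were tested in the BLA, of which 66 had higher and 82 lower values in isolated mice, with a median log2 fold change of -0.04. The 14 other H2 genes among them split into 6 higher and 8 lower. Of the nearest measured genes that are not H2 genes, Ddx39b, before H2-D1, was at 0.01 and Gm18733, after it, at -0.60. Gnl1, before H2-T24, was at -0.17, Gm6034, after H2-T22, at -0.26, Ring1, after H2-K1, at 0.14, Psmb8, after Tap1, at -0.26 and Gm8750, after H2-Q4, at -0.87. The H2 neighbours H2-K2 and H2-Q2 were at 0.71 and 2.05, on levels of at most 0.360 and 0.832 CPM in the BLA.

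In the VTA, 165 other genes of the window split into 81 higher and 84 lower values in isolated mice, with 0 called by edgeR, and 17 of 21 other H2 genes had lower values. The smallest p-values there were those of Gm23442, Ring1, Prrc2a, Csnk2b and H2-Q5, each with an adjusted p of 0.236. Between the regions, 15 of the 22 other H2 genes were called lower and 3 higher in BLA, whereas the 149 genes of the window that are neither members nor H2 genes had 34 called lower and 37 higher.

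**Figure D5:**
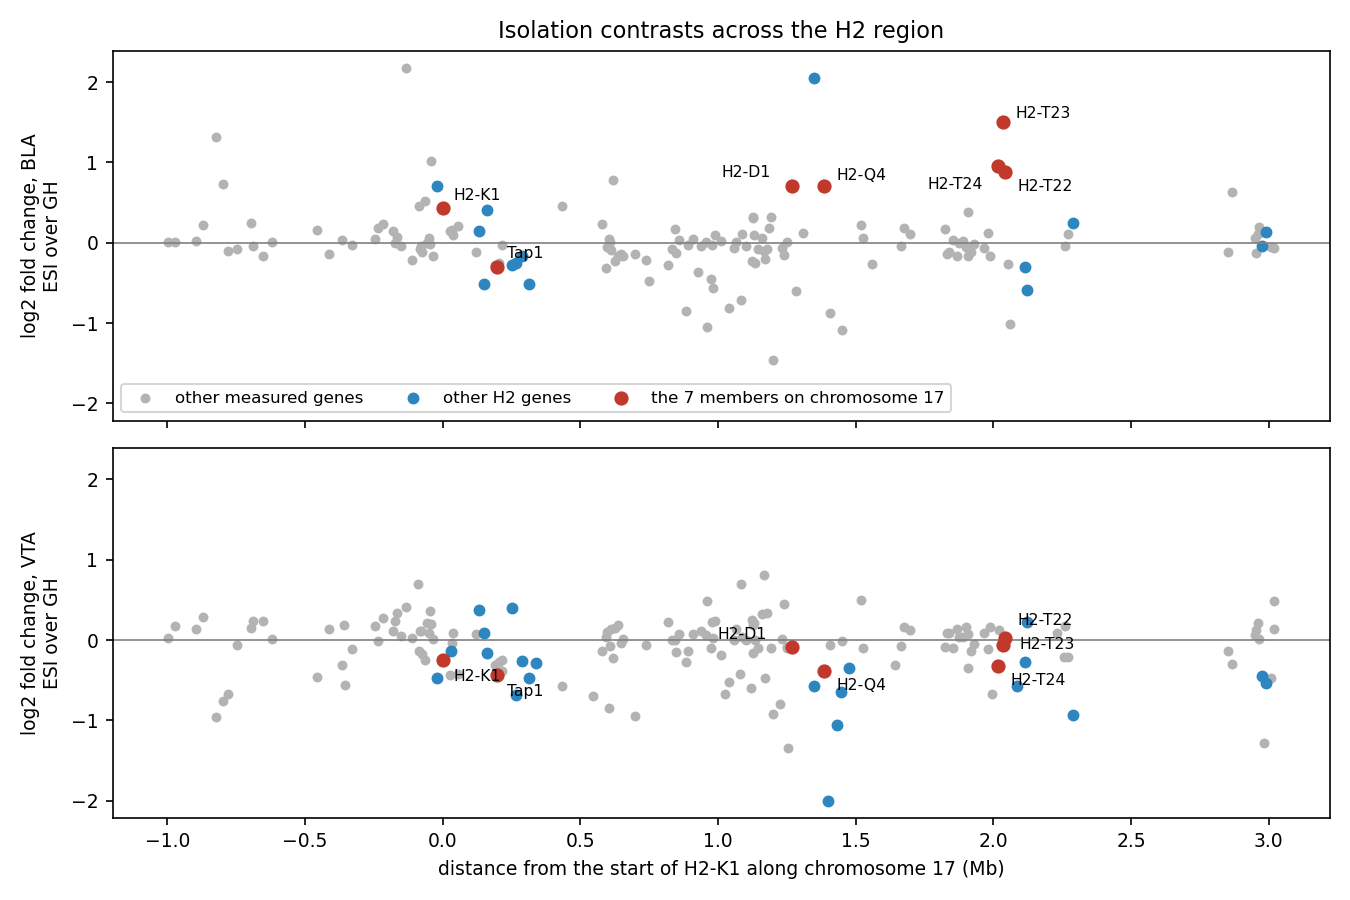
Log2 fold change, isolated over group-housed (y axis), of measured genes by distance from the start of H2-K1 in Mb (x axis), in BLA (upper panel) and in VTA (lower panel); red points are the 7 members on chromosome 17, blue points other H2 genes and grey points the remaining genes. In BLA the H2-T members stand at 0.88 to 1.504, above the grey points around them, and in VTA the 7 members lie between -0.44 and 0.03.

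The genes most like the members were ranked by Pearson's r over the 12 libraries among 16649 genes with a mean of at least 1 CPM. With the mean log2 CPM of the 4 picked genes, the highest were the zinc finger gene Zfp811 (r = 0.969), Slc2a4, the insulin-responsive glucose transporter (0.963), 9330118I20Rik (0.951), the chromatin gene Hmga1 (0.949) and Ecm2 (0.946). Zfp811 and Hmga1 also lie on chromosome 17. Zfp811 had 7.001, 7.03 and 9.11 CPM in BLA_ESI, 5.05, 5.03 and 6.04 CPM in BLA_GH, 12.4, 9.84 and 13.8 CPM in VTA_ESI and 12.7, 13.0 and 12.3 CPM in VTA_GH, so that it was high where the picked genes were high in BLA. With the mean of H2-K1, H2-Q4, B2m and Tap1 the highest were the RNA-binding gene Msi2 (0.979), Plcd4 (0.975), Tmtc4 (0.974), Dab2 (0.972) and the extracellular matrix gene Lum (0.972). After region means were subtracted, D130020L05Rik (0.874), an entry whose name had been turned into the date 1-Sep (0.873), the ribosomal protein gene Rps18 (0.861), Zfp811 (0.859) and Endov (0.850) were most like the picked genes, and Dusp15 (0.843), Zfp992 (0.827), Wdr81 (0.826), Lst1 (0.813) and Gm37069 (0.811) most like the other 4. These likenesses are descriptions over shared libraries, and those of the picked genes include the contrast that chose them.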

How the data were processed

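Total RNA from brain punches, depleted of ribosomal RNA, was sequenced from stranded libraries made from 1 ug of RNA, per the labels' protocols. The authors deposited raw counts per gene; the submitters' processing notes list cutadapt, TopHat2, HTSeq and mm10. Annotation, strand setting and mate handling: not given in the sources used here. Genes that overlap on opposite strands, such as Psmb9 and Tap1, may therefore share counts. The per-sample tables were used, since the table of the series differed from them at 2 entries, none of them a member.

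Members were matched by name, and groups were taken from the sample titles. The filter was filterByExpr (at least 10 counts, 15 in total) and the scaling TMM. Tests were robust quasi-likelihood F tests of edgeR 4.0.16 (R 4.3.3), adjusted by Benjamini-Hochberg over every gene that passed the filter, at a threshold of 0.05, within each region on its 6 libraries and between regions on all 12. An SE is the log2 fold change divided by the square root of F. All 8 members passed the filter in each fit; in the BLA it rests partly on the isolated libraries. Levels are TMM-scaled CPM over the 12 libraries, and log2 CPM used a prior count of 2. Transcript stretches of 50 bases and gene models came from GENCODE M21 on GRCm38, to which 98.8% of the names matched, and promoter windows from RefSeq.

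The members and lists were chosen with earlier results of these data known. The rule was to name from each list up to 4 genes by smallest p among those called and otherwise up to 2. It was not filled for every list. The class II genes and several regulators of class I transcription called between the regions are counted but not named. H2-T10, A930015D03Rik and the motifs were chosen after their values or letters were seen. Scripts had first been tested on simulated data with known changes. All 12 pairs of libraries within a group differed beyond sampling noise (lowest chi-square over its degrees of freedom 20.8). Precision is limited by 3 libraries per group, and counting error is largest where counts are under 30. Alternatives were RLE factors, DESeq2 1.42.0, limma 3.58.1 (voom with quality weights), no filter, leaving out the ribosomal RNA loci, a replicate block, a single fit of 12 libraries, leaving out each library, and leaving out sets of libraries with much ribosomal RNA or many choroid plexus reads. Figures were drawn with matplotlib 3.10.9. A gene that the naming rule selects is not reported here.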

Additional observations from a re-analysis of the deposited data

Results flagged for a closer look

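For 3 members every isolated BLA library lay above the group-housed BLA mean and every isolated VTA library lay below the group-housed VTA mean; the difference itself was not tested. The isolation log2 fold change, BLA minus VTA, differed by 1.29 for H2-T24, by 1.10 for H2-Q4 and by 0.68 for H2-K1. H2-T24 was picked for its BLA value, so part of its difference follows from the choice. H2-Q4 rested on 5 to 29 counts per BLA library. Without VTA_GH library 3 the VTA log2 fold changes were 0.0058 for H2-K1 and 0.036 for H2-Q4, so these no longer went opposite ways. Without the 3 BLA libraries of high ribosomal RNA content the BLA values were 0.06 for H2-K1 and 0.24 for H2-Q4.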

How the results depend on the processing

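The region contrast kept its direction and its call for all 8 members in 144 of 144 values under other settings, with 10908 to 12955 genes called in all. In the VTA, where 1 gene was called, DESeq2 called 486 genes, limma voom 2, no filter 17, the fit without the libraries rich in choroid plexus markers 0, and fits without a library 0 to 1200, the highest without VTA_ESI library 2; no member was called under any of these settings (adjusted p of 0.181 or more). H2-T24 and Tap1 stayed lower in 14 of 14 settings. Without a library the VTA log2 fold change ranged from -0.15 to 0.20 for H2-T22, -0.33 to 0.21 for H2-T23, -0.29 to 0.093 for H2-D1, -0.46 to 0.0058 for H2-K1, -0.64 to 0.036 for H2-Q4 and -0.035 to 0.25 for B2m; without the libraries rich in choroid plexus markers it was -0.38 for H2-T22 and -0.13 for B2m, and with voom 0.022 for H2-D1. In the BLA, where 0 genes were called, DESeq2 called 6, no filter 8, the fit without the 3 BLA libraries of high ribosomal RNA content 1, and fits without a library 0 to 4, the highest without BLA_ESI library 2. Without a library the BLA log2 fold change ranged from 1.18 to 2.14 for H2-T23, 0.76 to 1.10 for H2-T22 and 0.45 to 1.08 for H2-Q4. For H2-D1 it ranged from 0.63 to 0.88 and for H2-K1 from 0.29 to 0.64. The highest value of each was the one without BLA_GH library 3, the group-housed library poor in ribosomal RNA reads. For H2-T24 the range was 0.83 to 1.11. Without the 3 libraries of high ribosomal RNA content the values were 0.74 for H2-T23, 0.49 for H2-T22, 0.24 for H2-Q4, 0.37 for H2-D1, 0.06 for H2-K1 and 0.84 for H2-T24. The causes were not tested. Correlations of same-numbered deviations were -0.06 to -0.02 in VTA and -0.03 to 0.17 in BLA. They cannot show whether a number marks a shared animal, litter or day, which the labels do not say. With the number as a block 0 genes were called in VTA, 0 in BLA and 11610 between regions. Genes at an unadjusted p under 0.05 in edgeR's test went from 439 to 759 in BLA and from 4408 to 3783 in VTA. Depth limits H2-Q4 and H2-T23 in the group-housed BLA most.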
